A study of Mus musculus with 6 samples.

Results

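The mitochondrial ribosomal protein genes were taken as the rows of the deposited expression table whose symbol is Mrpl or Mrps followed by digits alone. There were 73 of them among 23235 genes, 47 named for the large subunit (Mrpl) and 26 for the small subunit (Mrps). RNA was sequenced by Smart-seq2 from LT-HSCs, long-term haematopoietic stem cells, which sustain all blood lineages, from bone marrow of mice that carried a knockout of Hmces (3 libraries) or were wild type (WT, 3 libraries). All mice were listed as C57BL/6 and aged 2 months, and each library came from 1500 cells sorted by flow cytometry with stem cell antibodies. HMCES protects abasic sites in single-stranded DNA, and the comparison asks which transcripts differ in stem cells labelled as its knockout. The labels give neither the Hmces allele nor the gates of the sort, a 13bp tag of unstated meaning stands in the titles of all 6 libraries, and the design text speaks of duplicates where 3 libraries per genotype are labelled.

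Mitochondria carry their own ribosome, which translates the few proteins encoded by mitochondrial DNA, all of them subunits of the respiratory chain or of ATP synthase. Its RNAs come from mitochondrial DNA, whereas every one of its proteins is encoded in the nucleus, made in the cytosol and imported. Some of these proteins descend from proteins of the bacterial ribosome and others were added in the mitochondrial lineage. In haematopoietic stem cells, mitochondrial activity is known to be held low at rest and to increase when the cells are activated.

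The nuclear genes of the mitoribosome lie scattered over the genome, on 17 chromosomes for the 73 members, with at most 10 on 1 chromosome (chromosome 11). Their promoters are known in mammals as sites of NRF1 and of ETS-family factors such as GABP, the nuclear regulators of mitochondrial genes. Promoter sequences from RefSeq (build GRCm38.p6, 250 bases before to 50 bases after each start) were matched by symbol for 64 of the 73 members, and were not matched for Mrpl4, Mrpl13, Mrpl15, Mrpl19, Mrpl38, Mrpl54, Mrps28, Mrps34 and Mrps35. Matches to the NRF1 letters (GCGC, then any base, then TGCGC) or to the ETS letters CCGGAAG on either strand are printed in capitals. The following 4 promoters are shown up to the start, out of the 7 matched members whose knockout and WT values did not overlap. They lie at chr11:120484387-120484636 (plus strand) for Mrpl12, chr7:105811088-105811337 (minus strand) for Mrpl17, chr11:94653541-94653790 (plus strand) for Mrpl27 and chr17:47368947-47369196 (plus strand) for Mrps10, all in GRCm38.p6.
Mrpl12: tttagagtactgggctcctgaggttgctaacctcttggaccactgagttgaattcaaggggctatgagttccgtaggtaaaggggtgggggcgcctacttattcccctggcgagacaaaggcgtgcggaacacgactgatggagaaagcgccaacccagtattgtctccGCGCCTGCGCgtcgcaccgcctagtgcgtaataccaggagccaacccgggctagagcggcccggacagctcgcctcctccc
Mrpl17: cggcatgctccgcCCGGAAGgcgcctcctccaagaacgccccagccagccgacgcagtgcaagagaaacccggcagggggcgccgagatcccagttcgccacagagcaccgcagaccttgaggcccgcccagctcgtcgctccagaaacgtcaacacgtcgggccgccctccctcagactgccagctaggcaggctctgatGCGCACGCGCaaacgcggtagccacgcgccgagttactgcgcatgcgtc
Mrpl27: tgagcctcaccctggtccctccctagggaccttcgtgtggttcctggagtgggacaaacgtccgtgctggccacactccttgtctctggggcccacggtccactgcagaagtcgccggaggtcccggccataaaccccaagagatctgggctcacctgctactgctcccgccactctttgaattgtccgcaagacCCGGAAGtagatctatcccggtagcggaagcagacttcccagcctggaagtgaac
Mrps10: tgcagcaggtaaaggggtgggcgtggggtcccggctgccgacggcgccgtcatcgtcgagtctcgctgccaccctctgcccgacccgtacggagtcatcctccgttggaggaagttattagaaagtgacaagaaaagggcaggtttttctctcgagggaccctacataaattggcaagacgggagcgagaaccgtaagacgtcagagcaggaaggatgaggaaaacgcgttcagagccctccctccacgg

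The Mrpl12 promoter holds the NRF1 letters 81 bases before the start, the Mrpl17 promoter holds them 49 bases before it and the ETS letters 237 bases before it, and the Mrpl27 promoter holds the ETS letters 55 bases before it. Within the 250 bases before the start, the Mrps10 promoter holds neither, and the same is true of Mrps33, which is not shown. Of the 7 matched members without overlap, 2 held the NRF1 letters and 4 the ETS letters within the 300-base window. Over the 64 matched members, 12 (18.8%) held the NRF1 letters within the 300-base window, against 5.19% of all 27025 genes with a promoter in the table and 12.03% of the tested genes among them. The ETS letters stood in 21 members (32.8%), against 9.93% of all genes and 21.2% of tested genes. The YY1 letters AAGATGGC were found in 11 members (17.2%), against 3.19% and 5.49%. The E-box letters CACGTG were in 4 members (6.25%), against 8.09% and 12.3%. These matches describe letters in a window and not bound sites. No binding was measured.

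The values were FPKM, fragments per kilobase of transcript and per total of mapped fragments, which allows levels of different genes to be set side by side per length. Every level is a share of its own library. Hmces itself, listed as 8430410A17Rik, had 8.95, 0.222 and 6.95 FPKM in knockout cells, against 39.5, 45.4 and 41.0 FPKM in WT cells, in the direction of the labels. Knockout replicates 1 and 3 thus kept part of its signal. Even this gene was not called by limma (log2 fold change -3.23, SE 0.71, adjusted p = 0.289), so the absence of a call is weak evidence of no difference. Depth, estimated from the steps of low values, ran from 9100000 to 13900000 fragments per library. One library, knockout replicate 2, scored 67.0 on the leading principal component, where the other 5 scored between -33.6 and 10.1. Of 14 LT-HSC markers, 12 passed the filter on low values and limma called 0, with 2 higher at an unadjusted p under 0.05, and the list summed to 917 to 951 FPKM in knockout and 778 to 864 FPKM in WT libraries. Among these markers the smallest p-values were those of Esam, an adhesion molecule, at 134 ± 18.0 FPKM in knockout and 66.0 ± 4.87 FPKM in WT cells (adjusted p = 0.0702), of Ly6a, which encodes the stem cell antigen Sca-1, at 311 ± 48.8 FPKM in knockout and 231 ± 21.7 FPKM in WT cells (adjusted p = 0.488), and of Gata2, a stem cell transcription factor, at 73.9 ± 17.9 FPKM in knockout and 94.9 ± 15.9 FPKM in WT cells (SD, n = 3 each; adjusted p = 0.621). Esam, Ly6a, Tek and Mllt3 lay wholly above WT, where 7.47% of all tested genes did, and Fgd5 and Hoxb5 were below the filter. Of 19 granulocyte and monocyte markers, 18 had a positive log2 fold change and 17 lay wholly above WT, with a summed level of 20111 to 26641 FPKM in knockout libraries and 7310 to 11218 FPKM in WT libraries, and none at 0 in every library of a genotype. Hp, Anxa3, Mpo and Ctsg, 4 of the 19, were called higher, where 0.104% of all tested genes were. That count was 0 without knockout replicate 2, knockout replicate 3 or WT replicate 1, 1 without knockout replicate 1 or WT replicate 2, 6 without WT replicate 3 and 11 without small RNA genes. Lymphoid markers were positive for 5 of 5 tested genes (median log2 fold change 0.94, 2 wholly above WT), and mast cell, basophil and eosinophil markers for 4 of 5 (median 2.03, 2 wholly above WT). The latter list summed to 1010, 74.0 and 200 FPKM in knockout libraries, against 34.5, 79.4 and 32.7 FPKM in WT libraries. Its sums overlapped between the genotypes, and its median ran from 1.3 to 2.76 with 1 library left out. Erythroid markers were positive for 3 of 5 (median 0.28) and megakaryocyte markers for 2 of 6 (median -0.16), and both medians changed sign when single libraries were left out. Limma called 0 in each of these 4 lists. At an unadjusted p under 0.05, 2 lymphoid and 3 mast cell, basophil and eosinophil markers were higher. At that limit 1 megakaryocyte marker was lower and 0 erythroid markers passed, where 4.84% of all tested genes were lower and 4.32% higher. In bulk RNA, fewer cells of a type and less RNA per cell cannot be told apart.

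All 73 members were expressed in these cells. Each was at or above 1 FPKM in every library and none was listed at 0, so all of them passed the filter of a mean of at least 1 FPKM. The median member had a level of 69.0 FPKM in knockout cells and 72.9 FPKM in WT cells. Levels spanned a 21.0-fold range, from 12.7 FPKM for Mrps25 to 267 FPKM for Mrpl33 as means over 6 libraries. The large and the small subunit had similar middle levels, with medians of 70.4 and 71.2 FPKM over 6 libraries.

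Mrpl33, Mrpl42 and Mrpl23 were the most abundant genes named for the large subunit. Mrpl33, the counterpart of bacterial ribosomal protein L33, was at 261, 202 and 288 FPKM in knockout libraries, against 289, 307 and 253 FPKM in WT libraries. Mrpl42, a protein with no bacterial counterpart, was at 274, 185 and 242 FPKM in knockout libraries, against 269, 267 and 289 FPKM in WT libraries. Mrpl23, which lies where the new polypeptide leaves the ribosome, was at 229, 198 and 259 FPKM in knockout libraries, against 233, 304 and 254 FPKM in WT libraries. In all 3 genes knockout replicate 2 was the lowest of the 6 libraries, and the groups overlapped. At the low end, Mrpl41, another protein without a bacterial counterpart, was at 14.4, 5.66 and 13.8 FPKM in knockout libraries, against 15.1, 16.6 and 11.8 FPKM in WT libraries, and knockout replicate 2 was again lowest. Mrpl19 was at 16.0, 17.4 and 11.9 FPKM in knockout libraries, against 14.6, 14.1 and 13.1 FPKM in WT libraries, with overlapping groups.

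In the small subunit, Mrps21 and Mrps16, counterparts of bacterial S21 and S16, led the order of levels. Mrps21 was at 219, 121 and 172 FPKM in knockout libraries, against 204, 235 and 165 FPKM in WT libraries. Mrps16 was at 196, 162 and 159 FPKM in knockout libraries, against 170.3, 174 and 146 FPKM in WT libraries. Both genes overlapped between the genotypes. Mrps33 was next and is described below with the members that did not overlap. At the low end, Mrps2 was at 15.8, 22.7 and 15.7 FPKM in knockout libraries, against 21.3, 23.4 and 13.2 FPKM in WT libraries. Mrps25, which has no bacterial counterpart, was at 14.8, 13.6 and 11.6 FPKM in knockout libraries, against 13.6, 10.99 and 11.8 FPKM in WT libraries. The groups overlapped in these genes as well. The order of the levels is a graded one. In 72 of 72 pairs of neighbours in the order, the ranges over 6 libraries overlapped. Such ranges do not compare neighbours within the same library, and whether neighbours differ was not tested.

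**Figure D1:**
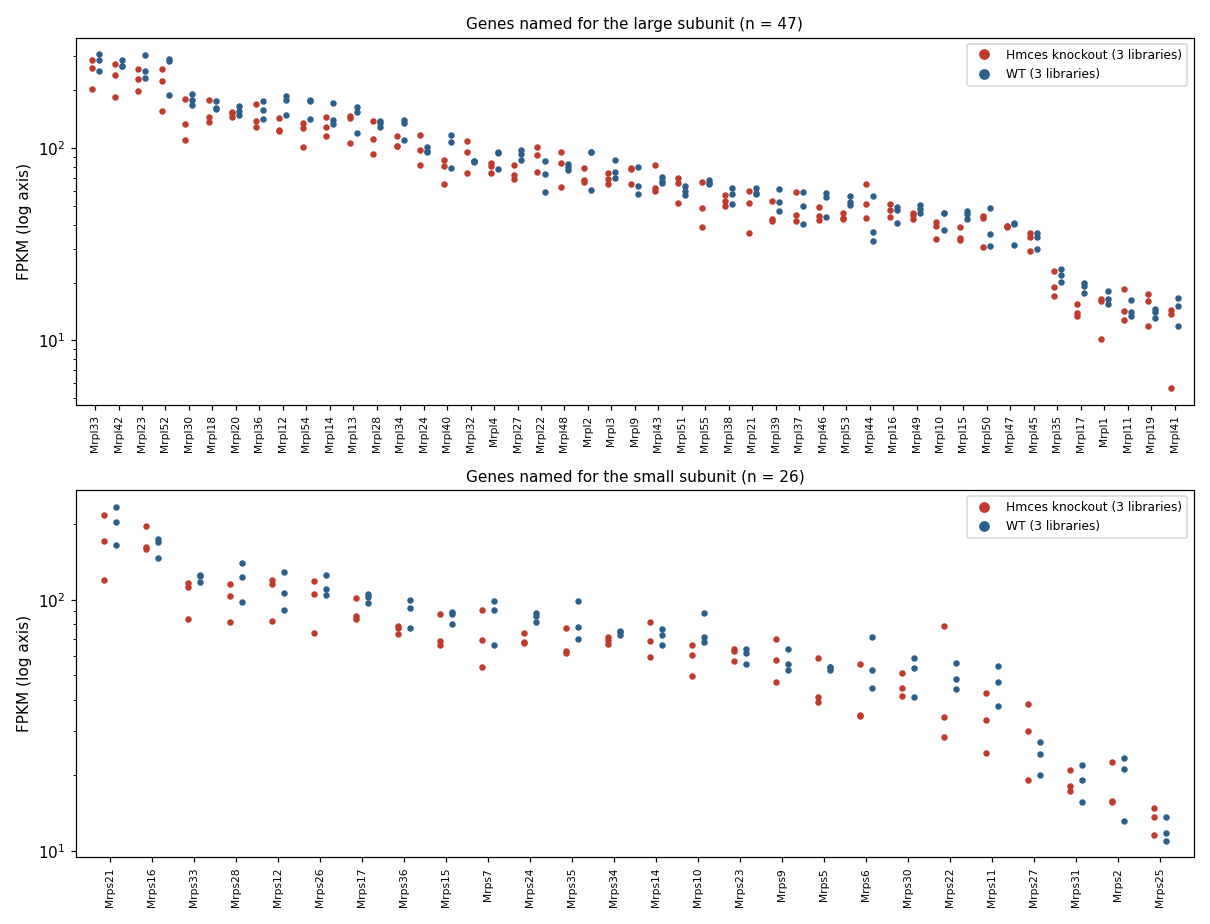
FPKM (log axis) of the 47 large (top) and 26 small (bottom) subunit genes in each library, in order of the mean over 6 libraries, with the 3 Hmces knockout libraries (red) left of the 3 WT libraries (blue) for each gene. Mean levels run from 12.7 to 267 FPKM, and for most genes the red and blue points overlap.

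Levels kept nearly the same order in both genotypes, with a Spearman rho of 0.979 between the knockout and the WT means across the 73 genes, which share libraries and transcript lengths. Members with longer transcripts had lower levels, with a rho of -0.54 between the log2 length of the principal GENCODE transcript and the log2 mean FPKM across the same genes. FPKM is itself divided by transcript length, so part of this relation may be built in. Both relations are descriptions across genes, which are not independent replicates. The coefficient of variation of a member over the 3 libraries of a genotype had a median of 14.7% in knockout and 10.6% in WT cells, and was larger in knockout cells for 44 of the 73. For the 5586 tested genes in the same range of levels the medians were 17.2% in knockout and 13.2% in WT cells. A member had a median of 995 estimated fragments per library and at least 48, so that counting error at the median is 3.17%, well under the spread between libraries.

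Mitoribosomal protein genes were, on balance, slightly lower in Hmces knockout cells, and none of them passed the test for a difference. Of the 73 members, 58 had a negative log2 fold change of knockout minus WT and 15 a positive one, where 51.9% of all 11532 tested genes and 56.2% of tested genes in the same range of levels were negative. The count was 53 under quantile or upper-quartile scaling and 54 under median of ratios scaling, with Mrpl24, Mrpl43, Mrpl45, Mrpl48, Mrps12 and Mrps31 the members that turned positive under 1 or more of these, each within 0.05 of 0 on the log2 scale beforehand. The median log2 fold change was -0.155 for the large subunit and -0.217 for the small subunit, against -0.01 over all tested genes. With limma and Benjamini-Hochberg adjustment over all tested genes, 0 of 73 members were called at an adjusted p under 0.05, where 0.113% of all tested genes were called (0.00867% lower and 0.104% higher), and the smallest adjusted p among members was 0.486. At an unadjusted p under 0.05, 5 members were lower and 0 were higher. With 1 library left out, 1 (without WT replicate 2), 3 (without knockout replicate 3 or WT replicate 1), 6 (without knockout replicate 2 or WT replicate 3) or 9 (without knockout replicate 1) were lower, and 1 was higher without WT replicate 3. Of all tested genes 9.16% met that limit, 4.84% lower and 4.32% higher, and of those in the members' range of levels 5.8% were lower. The 5 lower in the fit to all 6 libraries were Mrpl12, Mrpl15, Mrpl27, Mrpl54 and Mrps24.

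The groups did not overlap for 10 members, all lower in knockout cells, which is 13.7% of the 73. Among all tested genes 8.34% lay wholly lower in knockout cells and 7.47% wholly higher, and among tested genes in the same range of levels 9.77% lay wholly lower and 6.57% wholly higher. No member lay wholly higher. The share of wholly lower members was above each of these backgrounds by a few percentage points, and 63 of the 73 members overlapped between the genotypes.

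The stalk of the large subunit, which recruits translation factors to the ribosome, held 3 of these 10. Mrpl54, a stalk protein without a bacterial counterpart, was at 135, 101 and 128 FPKM in knockout libraries, against 178, 175 and 143 FPKM in WT libraries. Each knockout library lay below each WT library, the closest being knockout replicate 1 and WT replicate 3. The log2 fold change was -0.44 (SE 0.15, limma adjusted p = 0.488). Mrpl12, the counterpart of the bacterial L7/L12 protein, was at 144, 123 and 124 FPKM in knockout libraries, against 149, 186 and 178 FPKM in WT libraries. Knockout replicate 1 and WT replicate 1 came close to each other and the remaining libraries were well apart. Its log2 fold change was -0.39 (SE 0.13, adjusted p = 0.486). Mrpl53, at the base of the stalk, was at 43.2, 46.0 and 42.7 FPKM in knockout libraries, against 50.6, 56.6 and 52.2 FPKM in WT libraries. The knockout values lay close together below the WT values, with a log2 fold change of -0.27 (SE 0.13, adjusted p = 0.581).

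The 2 further stalk genes, Mrpl10, which anchors the L12 copies, and Mrpl11, which forms the base with it, overlapped between the genotypes. Mrpl10 was at 33.9, 39.6 and 41.4 FPKM in knockout libraries, against 46.2, 45.9 and 37.5 FPKM in WT libraries. Mrpl11 was at 14.2, 18.5 and 12.8 FPKM in knockout libraries, against 14.0, 16.2 and 13.4 FPKM in WT libraries. The grouping of members by position in the ribosome was made after their values were seen. Over the 5 stalk genes the median log2 fold change was -0.27 and 4 were negative.

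Elsewhere in the large subunit, 3 members did not overlap. Mrpl15, the counterpart of bacterial L15, was at 34.0, 39.2 and 33.1 FPKM in knockout libraries, against 46.9, 43.1 and 45.3 FPKM in WT libraries. Its WT values were tight, and knockout replicate 2 was the knockout library nearest to them. The log2 fold change was -0.34 (SE 0.14, adjusted p = 0.532). Mrpl17, at the exit of the polypeptide tunnel, was at 15.5, 13.5 and 14.0 FPKM in knockout libraries, against 17.7, 19.2 and 19.9 FPKM in WT libraries, with means of 14.3 and 18.9 FPKM in knockout and in WT cells. Each genotype spanned about as much as the gap between them. Its log2 fold change was -0.38 (SE 0.17, adjusted p = 0.559). Mrpl27, whose bacterial counterpart reaches into the catalytic centre, was at 72.6, 69.4 and 82.3 FPKM in knockout libraries, against 93.4, 87.2 and 98.2 FPKM in WT libraries. Knockout replicate 3 was the nearest to the WT libraries, and the log2 fold change was -0.31 (SE 0.12, adjusted p = 0.526). The Mrpl27 transcript overlaps exons of Eme1 on the opposite strand, and no source used here says whether counting used strand.

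The 7 genes of the central protuberance, the part of the large subunit that faces the head of the small one, were all negative, with a median log2 fold change of -0.20 and values from -0.40 for Mrpl55 to -0.00 for Mrpl48. Mrpl48 turned positive under each of the other 3 scalings. Leaving out knockout replicate 3 or WT replicate 1 left 6 negative, and the median was -0.31 without WT replicate 1. The 8 genes at the exit site, where the new protein meets the inner membrane, were split, with 5 negative, 3 positive and a median of -0.01, and 3 to 6 were negative when 1 library was left out. This group held Mrpl17 at one end and Mrpl22 and Mrpl44 at the other.

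Mrpl44, Mrpl22 and Mrps27 had the most positive differences and were chosen for description after their values were seen. Mrpl44 was at 51.1, 64.9 and 43.2 FPKM in knockout libraries, against 32.9, 36.5 and 56.4 FPKM in WT libraries. Mrpl22 was at 92.0, 75.7 and 101 FPKM in knockout libraries, against 73.6, 85.7 and 59.3 FPKM in WT libraries. Mrps27 was at 30.2, 38.6 and 19.2 FPKM in knockout libraries, against 20.0, 27.2 and 24.3 FPKM in WT libraries. In each of the 3 the ranges crossed. Mrpl44 had a log2 fold change of 0.35 (SE 0.24, adjusted p = 0.699), against 0.30 (SE 0.18, adjusted p = 0.646) for Mrpl22 and 0.24 (SE 0.26, adjusted p = 0.801) for Mrps27.

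**Figure D2:**
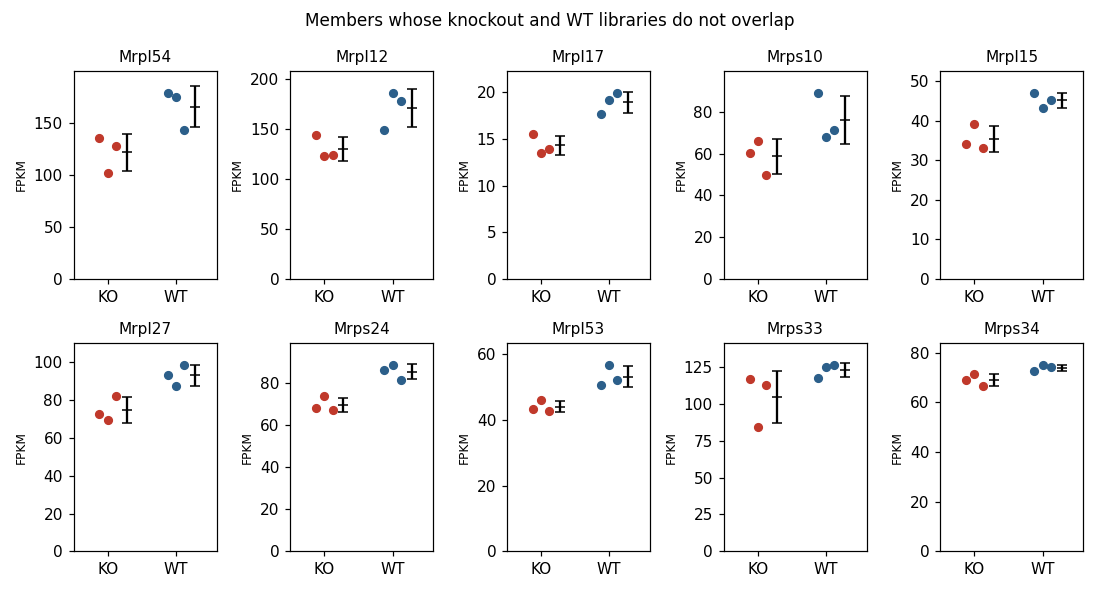
FPKM of the 10 members whose knockout and WT libraries did not overlap, with the 3 Hmces knockout libraries (red) left of the 3 WT libraries (blue) and the mean ± SD in black beside each. Every knockout point lies below every WT point, with log2 fold changes from -0.44 for Mrpl54 to -0.10 for Mrps34 and no adjusted p under 0.486.

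In the small subunit, 4 members did not overlap. Mrps24, the counterpart of bacterial S3 near the entry of the messenger RNA, was at 68.0, 73.6 and 67.2 FPKM in knockout libraries, against 86.1, 88.4 and 81.6 FPKM in WT libraries. The 3 values of each genotype were tight and the gap between the groups exceeded them, with a log2 fold change of -0.29 (SE 0.12, adjusted p = 0.525). Mrps10, a protein of the head of the subunit, was at 60.3, 66.0 and 49.8 FPKM in knockout libraries, against 88.9, 67.8 and 71.2 FPKM in WT libraries. Knockout replicate 2 and WT replicate 2 nearly met, and the log2 fold change was -0.37 (SE 0.16, adjusted p = 0.552).

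Mrps33, also of the head, was at 116.9, 84.2 and 113 FPKM in knockout libraries, against 117.5, 125 and 126 FPKM in WT libraries. The groups were separated by a very small margin between knockout replicate 1 and WT replicate 1, with a log2 fold change of -0.24 (SE 0.15, adjusted p = 0.663) that was -0.10 without knockout replicate 2. Mrps34, a protein of the body without a bacterial counterpart, was at 69.2, 71.3 and 66.7 FPKM in knockout libraries, against 72.7, 74.9 and 74.2 FPKM in WT libraries. All 6 values lay close together, and the log2 fold change was -0.10 (SE 0.11, adjusted p = 0.813). Mrps11, the counterpart of bacterial S11 on the platform, was at 33.3, 42.4 and 24.6 FPKM in knockout libraries, against 37.7, 47.1 and 54.7 FPKM in WT libraries. Its log2 fold change was -0.48 (SE 0.23, adjusted p = 0.577), or -0.28 without knockout replicate 3, and knockout replicate 2 lay above WT replicate 1.

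Of the 8 genes of the head, 7 were negative with a median log2 fold change of -0.25, and of the 16 genes of the body and platform 12 were negative with a median of -0.19. Leaving out WT replicate 3 gave -0.14 for the head, and leaving out knockout replicate 2 gave -0.12 for the body and platform. Mrps12, a protein of the decoding centre, was at 82.6, 119.6 and 116 FPKM in knockout libraries, against 107, 129.7 and 91.0 FPKM in WT libraries. The groups overlapped in part, and the log2 fold change of -0.05 turned positive under quantile normalization. Mrps22 varied most among the knockout libraries of all members, at 78.4, 28.3 and 34.2 FPKM in knockout libraries, against 44.3, 48.5 and 56.1 FPKM in WT libraries. A single knockout library, replicate 1, lay above all WT libraries while the other two lay below them. Mrps12 and Mrps22 were chosen after their values were seen. Mrps36, which carries a ribosomal name and was later assigned to the 2-oxoglutarate dehydrogenase complex, was at a mean of 76.2 ± 2.69 FPKM in knockout and 90.1 ± 11.4 FPKM in WT cells (SD, n = 3 each). Without it the small subunit median was -0.21 over 25 genes. Mrps30, counted here by its name, lies in the large subunit in structures of the mammalian mitoribosome.

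By descent, both classes were mostly negative. Of 45 counterparts of bacterial proteins, 36 were negative with a median log2 fold change of -0.19. Of 27 proteins of mitochondrial origin alone, 21 were negative with a median of -0.12. The wholly lower members were 6 of the 45 (13.3%) and 4 of the 27 (14.8%), against 8.34% of all tested genes. In the members' range of levels that share was 9.77%. Leaving out knockout replicate 2 gave medians of -0.11 and -0.06 for these classes. The difference between them was not tested.

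Library by library, the lower levels were a feature of knockout replicates 2 and 3 more than of replicate 1. Set against the mean of the WT libraries on the log2(FPKM + 1) scale, 39 members were lower in knockout replicate 1, 54 in replicate 2 and 61 in replicate 3. The median differences were -0.03, -0.21 and -0.17 in knockout replicates 1 to 3, while over all tested genes they were -0.02, 0.02 and -0.01. For comparison, each WT library set against the mean of the other 2 had 36, 25 and 39 members lower in WT replicates 1 to 3, with median differences of 0.00, 0.08 and -0.03. Knockout replicate 1 was close to WT replicate 3 in both measures, while knockout replicates 2 and 3 lay beyond every WT library. By subunit, the medians in knockout replicates 1 to 3 were -0.03, -0.20 and -0.17 for the large and -0.02, -0.24 and -0.21 for the small subunit.

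Knockout replicate 2 held the lowest value of the 6 libraries for 35 of the 73 members (47.9%), whereas it was lowest for 21.5% of all tested genes. Knockout replicate 3 was lowest for 19 members (26.0%), against 16.0% of all tested genes, and knockout replicate 1 for 6 members (8.22%), against 22.4%. WT replicate 2 held the highest value for 22 of the 73 members, and the share of all tested genes was not computed for highest values. Without knockout replicate 2, which stands apart in the whole data set, the median log2 fold change was -0.09 for the large and -0.12 for the small subunit, against -0.03 for all tested genes, and 56 members were negative. Whether the properties that set this library apart account for its low values was not tested.

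**Figure D3:**
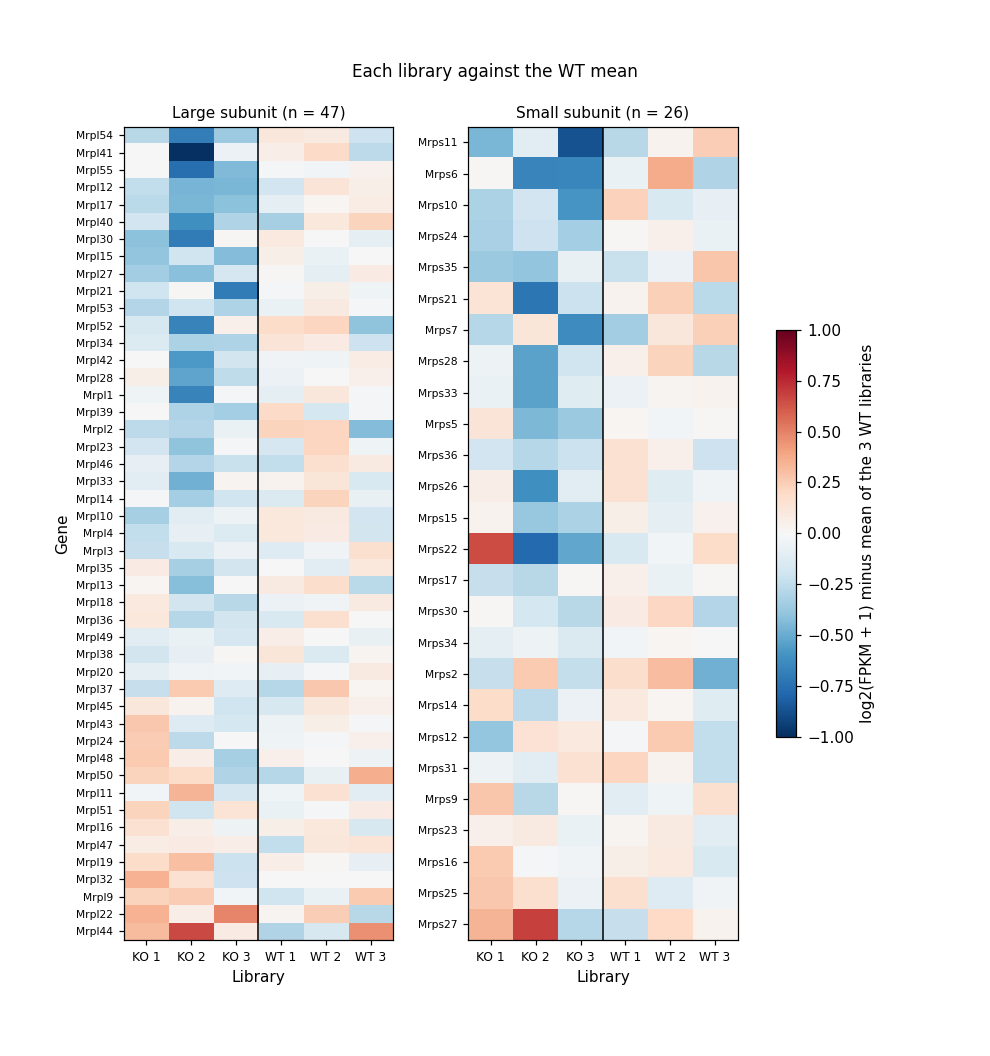
Difference of each library from the mean of the 3 WT libraries on the log2(FPKM + 1) scale (colour, blue lower and red higher), for genes (rows, ordered by log2 fold change) of the large and the small subunit, with Hmces knockout libraries left of WT libraries. Knockout replicates 2 and 3 are mostly blue, with medians of -0.21 and -0.17, and knockout replicate 1 is mixed, with a median of -0.03.

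Summed over members, the large subunit genes gave 4245, 3588 and 4029 FPKM in knockout libraries, against 4350.2, 4651 and 4302 FPKM in WT libraries. Knockout libraries were lower in each case, and replicate 1 came closest to the WT libraries. The small subunit genes gave 1999, 1680.2 and 1758 FPKM in knockout libraries, against 2036, 2129 and 1932 FPKM in WT libraries. Here knockout replicate 1 lay between WT libraries. As a share of all FPKM of a library, the 73 members took 0.804%, 0.741% and 0.760% in knockout libraries, against 0.825%, 0.845% and 0.859% in WT libraries. The shares did not overlap, and averaged 0.768% ± 0.0326 in knockout and 0.843% ± 0.0175 in WT cells (SD, n = 3 each). In the same libraries the granulocyte and monocyte markers summed to 20111 to 26641 FPKM in knockout and 7310 to 11218 FPKM in WT cells, and their part in the difference was not tested.

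Transcript length moved with the difference between genotypes, and also with differences between libraries of the same genotype. Each library was set against the mean of the other 2 libraries of its genotype. Across the 73 genes, the Spearman rho of that difference with length was -0.05, 0.297 and -0.307 in knockout replicates 1 to 3. It was -0.06, -0.37 and 0.307 in WT replicates 1 to 3. Of the 37 members with a principal transcript of at most 1316 nt, the median length, 35 lay below 0, at a median log2 fold change of -0.24, and the exceptions were Mrpl16 and Mrpl22. Among the 36 longer ones 23 were negative, with a median of -0.03. With 1 library left out, 33 to 36 of the shorter and 19 to 25 of the longer were negative, with the longer nearest to 0 without knockout replicate 3 (-0.00) and farthest without knockout replicate 1 (-0.09). The wholly lower members were 8 of the 37 shorter (21.6%) and 2 of the 36 longer ones (5.56%), where 13.5% of all shorter and 8.01% of all longer tested genes lay wholly lower, and 14.1% and 9.45% of those in the members' range of levels. A like but smaller difference was seen in all tested genes with a known length, where 62.3% of the shorter and 51.0% of the longer were negative, with medians of -0.10 and -0.01. Among genes in the members' range of levels, 64.4% of the shorter and 55.2% of the longer were negative.

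By coding length, split at its median of 576 nt, the members were 81.1% negative in the shorter and 77.8% in the longer class, with medians of -0.19 and -0.15. The Spearman rho across the 73 genes between length and log2 fold change was 0.39 for transcript length and 0.265 for coding length, and over all 9781 tested genes with a length it was 0.10 for transcript length and 0.09 for coding length. Without knockout replicate 2 the median was -0.14 for members with shorter and -0.04 for members with longer transcripts. The lengths are those of the longest principal transcript in GENCODE vM21 and may differ from the transcripts the authors counted.

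**Figure D4:**
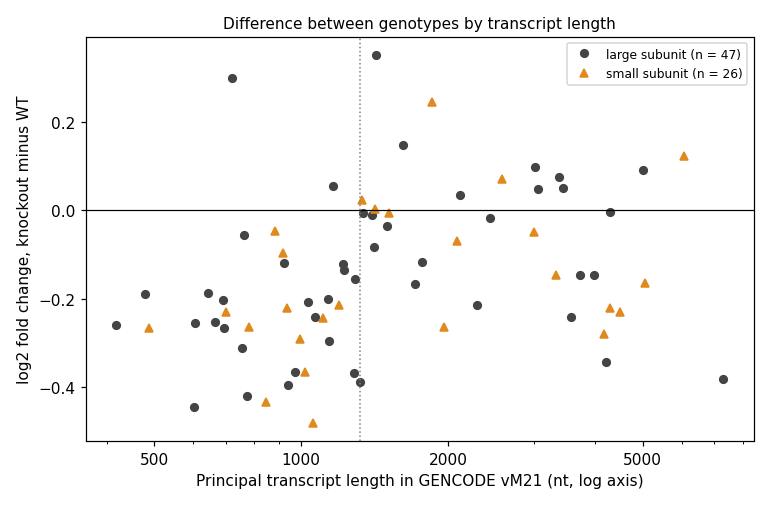
Log2 fold change (Hmces knockout minus WT) of the 73 members against the length of the principal transcript (log axis), for the large (circles) and small (triangles) subunit, with the median length of 1316 nt as a dotted line. Left of the line 35 of 37 genes lie below 0, and right of it 23 of 36.

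A total of 17 members share exonic sequence with another protein-coding gene, for nearly all on the opposite strand, and in these the median log2 fold change was -0.12, against -0.20 in the 56 members without such overlap. Reads counted for members with opposite-strand overlap may come from the neighbour if strand was not used, which the sources do not say. Mrps6 shares exons with Slc5a3 on the same strand, so its level is uncertain in either case. It was at 55.6, 34.6 and 34.7 FPKM in knockout libraries, against 52.7, 71.5 and 44.5 FPKM in WT libraries, with overlapping groups. Named pseudogenes of 3 members, Mrpl23, Mrpl48 and Mrps36, are annotated, and reads of these could be split between copies.

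Other proteins of the mitoribosome whose names fall outside the pattern were measured for 10 of 12 listed symbols, and 7 were negative, at a median log2 fold change of -0.12 (-0.06 without WT replicate 2). With limma 0 were called (smallest adjusted p = 0.515), and 1 was lower at an unadjusted p under 0.05, where 4.84% of all tested genes were. Chchd1, a small subunit protein, was at 142, 100.2 and 121 FPKM in knockout libraries, against 155, 156 and 152 FPKM in WT libraries. All knockout values lay below the WT values, and the log2 fold change was -0.37 (adjusted p = 0.515). Mrp63, a large subunit protein, was at 31.8, 23.7 and 31.9 FPKM in knockout libraries, against 34.5, 38.6 and 38.8 FPKM in WT libraries, also without overlap (log2 fold change -0.36, adjusted p = 0.577). Ptcd3, a small subunit protein that binds RNA, went the other way, at 47.4, 52.1 and 61.4 FPKM in knockout libraries, against 45.4, 43.5 and 39.9 FPKM in WT libraries. Its groups did not overlap, and the log2 fold change was 0.31 (adjusted p = 0.582).

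Mitochondrial translation factors gave a mixed picture. Of 13 genes, 8 were negative and 5 positive, and the median log2 fold change was -0.23, closer to 0 when 1 library was left out, at -0.04 (knockout replicate 3), -0.05 (WT replicate 2), -0.11 (knockout replicate 2) or -0.14 (WT replicate 3). Limma called 0, and 2 were lower at an unadjusted p under 0.05, where 4.84% of all tested genes were. Guf1, a GTPase that acts on the mitoribosome, was at 15.6, 7.996 and 10.9 FPKM in knockout libraries, against 16.3, 19.4 and 24.4 FPKM in WT libraries. Mtif3, an initiation factor, was at 12.02, 14.5 and 10.4 FPKM in knockout libraries, against 17.9, 19.7 and 16.0 FPKM in WT libraries. Neither gene overlapped between the genotypes. Guf1 had a log2 fold change of -0.78 (SE 0.28, adjusted p = 0.495), against -0.51 (SE 0.20, adjusted p = 0.530) for Mtif3. The elongation factor gene Gfm1 averaged 24.0 ± 3.35 FPKM in knockout and 29.8 ± 4.75 FPKM in WT cells (SD, n = 3 each; adjusted p = 0.675).

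Genes for assembly of the mitoribosome and modification of its RNA were split in direction. Of 24 measured, 13 were negative, and the median log2 fold change was -0.07 (0.03 without knockout replicate 1). Limma called 0, with 0 at an unadjusted p under 0.05, which 9.16% of all tested genes met. Rbfa, which matures the small subunit, was at 66.3, 66.3 and 63.0 FPKM in knockout libraries, against 82.1, 80.2 and 71.9 FPKM in WT libraries. Wbscr16 (now Rcc1l), which helps to assemble the ribosome, was at 18.4, 11.2 and 20.6 FPKM in knockout libraries, against 27.3, 26.0 and 20.8 FPKM in WT libraries. In both genes all knockout values lay below the WT values, by a narrow margin in Wbscr16 (adjusted p = 0.571 for Rbfa and 0.549 for Wbscr16). Rnmtl1 (now Mrm3), a methyltransferase of the mitochondrial ribosomal RNA, averaged 16.7 ± 6.08 FPKM in knockout and 25.1 ± 6.68 FPKM in WT cells (SD, n = 3 each; adjusted p = 0.589).

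The list of mitochondrial aminoacyl-tRNA synthetases, which charge the transfer RNAs, also held the amidotransferase genes Qrsl1, Pet112l and Gatc, all negative. Of its 22 genes, 16 were negative, with a median log2 fold change of -0.14. It was -0.08 and -0.07 without knockout replicates 1 and 3, -0.26 without knockout replicate 2 and -0.23 without WT replicate 1. Limma called 0, and 2 were lower at an unadjusted p under 0.05, where 4.84% of all tested genes were. Cars2, the cysteine enzyme, was at 28.7, 35.2 and 35.7 FPKM in knockout libraries, against 47.4, 42.3 and 49.9 FPKM in WT libraries. Its groups were clearly apart, and the log2 fold change was -0.48 (SE 0.15, adjusted p = 0.481). Gars, the glycine enzyme that serves cytosol and mitochondria, averaged 70.0 ± 19.2 FPKM in knockout and 100.7 ± 10.9 FPKM in WT cells (adjusted p = 0.495), and Iars2, the isoleucine enzyme, averaged 24.3 ± 7.90 FPKM in knockout and 34.0 ± 4.31 FPKM in WT cells (SD, n = 3 each; adjusted p = 0.575).

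Of 12 genes for mitochondrial transcription and RNA stability, 6 were negative, with a median log2 fold change of 0.02 (-0.09 without knockout replicate 1), and limma called 0, with 0 at an unadjusted p under 0.05. Peo1 (now Twnk), a replication helicase of mitochondrial DNA placed in this list, averaged 13.5 ± 4.72 FPKM in knockout and 18.4 ± 4.37 FPKM in WT cells (adjusted p = 0.677). The helicase gene Supv3l1 averaged 18.7 ± 4.57 FPKM in knockout and 22.4 ± 2.78 FPKM in WT cells (adjusted p = 0.730), and Tfam, which packages and transcribes mitochondrial DNA, averaged 24.9 ± 6.31 FPKM in knockout and 28.7 ± 2.94 FPKM in WT cells (SD, n = 3 each; adjusted p = 0.770). Of 11 tested nuclear regulators of mitochondrial genes, 7 were negative, with a median of -0.22 (-0.08 without knockout replicate 1). Limma called 0, with 1 higher at an unadjusted p under 0.05. That limit was met by 9.16% of all tested genes, 4.32% of them all being higher. Myc, a driver of ribosome and mitochondrial genes, was at 173, 223 and 161 FPKM in knockout libraries, against 209.8, 218 and 221 FPKM in WT libraries, with knockout replicate 2 above every WT library (adjusted p = 0.652). Mycn, its relative, was at 42.7, 64.2 and 50.9 FPKM in knockout libraries, against 36.2, 39.3 and 35.1 FPKM in WT libraries. All knockout values lay above the WT values, and the log2 fold change was 0.48 (SE 0.18, adjusted p = 0.495). Ppargc1b, a coactivator of mitochondrial genes, was low in all libraries, at 0.993 ± 0.751 FPKM in knockout and 2.33 ± 0.795 FPKM in WT cells (SD, n = 3 each; adjusted p = 0.621).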

How the data were processed

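The values were FPKM per gene as deposited by the authors, 1 column per library. Tools named, per the submitters' processing notes, were TopHat2 2.1.1 and Cufflinks 2.2.1, with build mm9. Options, annotation and use of strand were not given in the sources used here. Genes with a mean of at least 1 FPKM over 6 libraries (11532) were taken to log2(FPKM + 1) and tested by limma 3.58.1 under R 4.3.3 (mean-variance trend, genotype as the only term, two-sided). P-values were adjusted by Benjamini-Hochberg over all of them and called under 0.05. Log2 fold changes are on this scale, which understates changes of low genes. The labels do not say whether libraries came from separate mice, so p-values reflect the spread among these 6 libraries alone, and that spread may be technical. For a single value, 3 against 3 libraries give no exact permutation p below 0.1.

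Depth was estimated from 1246 genes with 1 annotated transcript over 1500 nt and a mean below 1 FPKM, assuming fragments of 200 nt; such counts cover counting error only. Lengths, chromosomes and overlaps came from GENCODE vM21 (GRCm38), not the authors' build. The fit was first run on simulated data with changed genes, each change larger than that of any member. That run does not show how well differences as small as those of the members would be found. Members and lists were chosen with earlier results of these data known. Named were, per subunit, the 3 highest and 2 lowest members, of those with non-overlapping groups the 5 most negative and 3 most positive, and the 3 with the smallest p, plus the 3 smallest p of each mitochondrial companion list and of the LT-HSC markers, and every called marker. Of the markers of other lineages only counts, medians and some sums are given. Tek and Mllt3, and the other members described (Mrpl53, Mrpl10, Mrpl11, Mrpl22, Mrpl44, Mrpl48, Mrpl55, Mrps6, Mrps12, Mrps22, Mrps27, Mrps30 and Mrps36) were chosen after their values were seen.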

Additional observations from a re-analysis of the deposited data

How the results depend on the processing

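No member was called by limma under any of the 17 alternatives, where the smallest adjusted p of a member ranged from 0.276 to 0.820. Members with a negative difference numbered 53 to 60. Over all genes, against 13 calls, there were 1 when genes of any level were tested, 6 without the variance trend, 20 with robust estimation, 36 without small RNA genes (chosen after seeing the data), and 2 to 19 with 1 library left out (2 without knockout replicate 3, 5 without knockout replicate 2, 7 without WT replicate 2). With 1 library left out, the large subunit median ran from -0.216 to -0.0944 (without knockout replicate 2) and the small subunit median from -0.243 to -0.122 (without knockout replicate 2; -0.139 without knockout replicate 3). Of the 19 members named by rule, signs changed in such fits for Mrpl19 (-0.0125 to 0.243), Mrps16 (-0.0251 to 0.126) and Mrps2 (-0.309 to 0.0838), and signs of other members changed too, as the counts by position in the ribosome show. The causes were not tested. Libraries with the same replicate number had correlations of their deviations of 0.08, 0.011 and 0.035, and those with different numbers ran from -0.083 to 0.048. Not every library correlated best with its own number. Deviations within a genotype sum to 0, so values this small cannot tell whether libraries of the same number were paired. The replicate block gave 2 calls over all genes and 0 among members. Depth limits Mrpl41 most, with an estimated 48 fragments in knockout replicate 2.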
